A study of Mus musculus with 48 samples.

Results

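The imprinted stretch of mouse chromosome 7 that runs from Ube3a through Snrpn to Peg12 was examined for DNA methylation in the amygdala of adult male mice. Every locus of the deposited count table that overlapped chromosome 7 from 59200000 to 62500000 (GRCm38) was taken as a member, which gave 147 of 187695 loci, or 0.0783%. A locus is a region in which the authors called enrichment of methylated DNA, and its value is the number of reads that fell into it. The rule used position and no measured value, although the stretch itself was picked with earlier results of these data known.

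Genomic imprinting leaves 1 parental copy of a gene silent, and a methylation mark set in the germ line tells the copies apart. In this domain, known in humans as the Prader-Willi and Angelman region, Snrpn, Ndn, Magel2, Mkrn3 and Peg12 are expressed from the paternal copy, and the maternal copy carries methylation at the Snrpn promoter, the imprinting centre. A long paternal RNA that starts at Snrpn, Snhg14, runs through tandem arrays of C/D box small nucleolar RNA (snoRNA) genes and on over Ube3a, which in neurons is left to the maternal copy. Methyl-CpG-binding-domain sequencing (MBD-seq) captures methylated fragments of both parental copies together, so the level at an imprinted promoter does not tell which copy was methylated.

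The study asked how a lack of brain serotonin and early stress together shape the amygdala. All mice were males on a C57BL/6 background (C57BL/6N per the methods) and were aged 4 months with Tph2+/- parents. They were Tph2+/+, Tph2+/- or Tph2-/-, where the constitutive knockout removes tryptophan hydroxylase 2, the enzyme that limits serotonin synthesis in the brain. In each genotype, mice were either controls (C) or separated from the mother (MS) for 3 h a day from postnatal day 2 to 15, which gave 6 groups of 8 libraries. The mice had been through behavioural tests before the tissue was taken. The labels name separate samples but not litters, so mice of a group may be siblings. Totals over all loci were 7.72 to 14.1 M counts per library, and 1 count was worth about 0.0885 CPM, the unit of counts scaled to the library total. In the tests, 46 libraries were used, because replicates 3 and 7 of Tph2-/- MS had the lowest totals of that group, where the study's methods also leave out libraries without naming them. Group values below leave them out too, so Tph2-/- MS has 6 libraries, unless all 48 are named. No RNA was analysed here, so the tissue was not checked against marker genes, and in bulk tissue a change in methylation and a change in the mix of cells cannot be told apart. Tph2 itself held 15 loci, which summed to 40.04 ± 2.93 CPM in Tph2+/+ (SD, n = 16) and 38.6 ± 4.02 CPM in Tph2-/- (SD, n = 14), and this does not check the genotype.

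Methylated DNA was captured at the starts of the paternally expressed genes and not at that of Ube3a. Of the 6 protein-coding genes that define the stretch, Snrpn, Ndn, Magel2, Mkrn3 and Peg12 each had a locus within 1 kb of a transcript start, and Ube3a, which encodes a ubiquitin ligase, had none. Below are the RefSeq promoters (GRCm38.p6, 250 bases before to 50 after the start, 5′ to 3′ on the strand of the gene) of Ube3a at chr7:59228500-59228799 (plus strand), Snrpn at chr7:60005150-60005449 (minus), Ndn at chr7:62348027-62348326 (plus) and Magel2 at chr7:62376729-62377028 (plus). They are shown because capture follows methylated CpG sites, and capitals mark every CpG.
Ube3a: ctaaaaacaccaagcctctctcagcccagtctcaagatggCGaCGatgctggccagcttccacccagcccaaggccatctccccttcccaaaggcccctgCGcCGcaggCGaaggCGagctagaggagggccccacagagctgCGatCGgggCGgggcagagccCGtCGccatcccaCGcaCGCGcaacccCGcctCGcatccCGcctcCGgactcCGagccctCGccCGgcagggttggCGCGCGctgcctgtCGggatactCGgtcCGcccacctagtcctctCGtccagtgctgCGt
Snrpn: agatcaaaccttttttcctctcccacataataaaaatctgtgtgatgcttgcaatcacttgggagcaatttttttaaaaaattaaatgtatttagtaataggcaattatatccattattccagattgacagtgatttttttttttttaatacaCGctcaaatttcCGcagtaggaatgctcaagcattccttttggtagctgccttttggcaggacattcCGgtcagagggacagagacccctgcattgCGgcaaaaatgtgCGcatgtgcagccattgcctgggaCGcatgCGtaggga
Ndn: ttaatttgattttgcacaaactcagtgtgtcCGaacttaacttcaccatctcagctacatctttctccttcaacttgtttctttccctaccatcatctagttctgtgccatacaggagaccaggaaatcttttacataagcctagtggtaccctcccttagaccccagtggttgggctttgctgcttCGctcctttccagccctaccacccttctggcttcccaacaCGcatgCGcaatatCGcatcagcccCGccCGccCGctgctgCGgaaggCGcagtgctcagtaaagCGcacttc
Magel2: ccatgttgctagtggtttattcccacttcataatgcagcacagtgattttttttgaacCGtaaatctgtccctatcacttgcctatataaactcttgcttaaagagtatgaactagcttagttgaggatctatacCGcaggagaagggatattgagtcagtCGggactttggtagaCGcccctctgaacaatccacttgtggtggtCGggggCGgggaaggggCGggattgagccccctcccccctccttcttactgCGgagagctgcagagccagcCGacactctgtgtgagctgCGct
Ube3a had the most CpG sites of these windows, 29, and its nearest locus lay 17285 bases away. The Snrpn window, which lies wholly inside a locus, had 7. Ndn had 11, of which the locus covered 123 of 300 bases, and Magel2 had 10, with only the last 22 bases under its locus. The windows of Mkrn3 (15 CpG sites) and Peg12 (12) lay wholly inside their loci. Over all 32851 promoter windows in the RefSeq table, 10.5% touched a locus. The share was 23.8% for windows with 5 to 9 CpG sites, 11.8% with 10 to 19 and 1.63% with 20 or more, the class of Ube3a. Within 1 kb of a start, 22.5% of 27025 genes had a locus.

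Snrpn has further promoters upstream, known for transcripts expressed in brain and oocyte. Those at chr7:60047929-60048228, chr7:60140176-60140475 and chr7:60450128-60450427 had 4, 3 and 2 CpG sites and no locus, with the nearest locus 42356, 14667 and 33982 bases away. The letters GCATGCG, searched on both strands, stood in all 4 Snrpn windows and in that of Ndn, but not in those of Ube3a, Magel2, Mkrn3 and Peg12. Of all promoter windows, 3.58% held these letters.

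Along the domain, loci clustered over the snoRNA arrays. Of the 147 loci, 92 overlapped Snhg14, 29 overlapped no annotated gene, and none overlapped Ipw. A stretch of 173 kb from 59211216 to 59384199 that holds all of Ube3a had no locus. This stretch had 0.562 CpG sites per 100 bases. The whole Snrpn gene, which holds 1 locus, had 0.439. The median of 1.82 in the loci of the whole table is one of captured regions and not of long stretches. The Snord115 array held 38 loci and the Snord116 array 52, a further 2 lay between the arrays and Snrpn, 1 covered the Snrpn promoter, 43 were spread over the gene-poor stretch between Snrpn and Ndn, 7 lay from Ndn to Peg12, 2 beyond Peg12 and 2 before Ube3a. In total the loci covered 5.32% of the window.

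**Figure D1:**
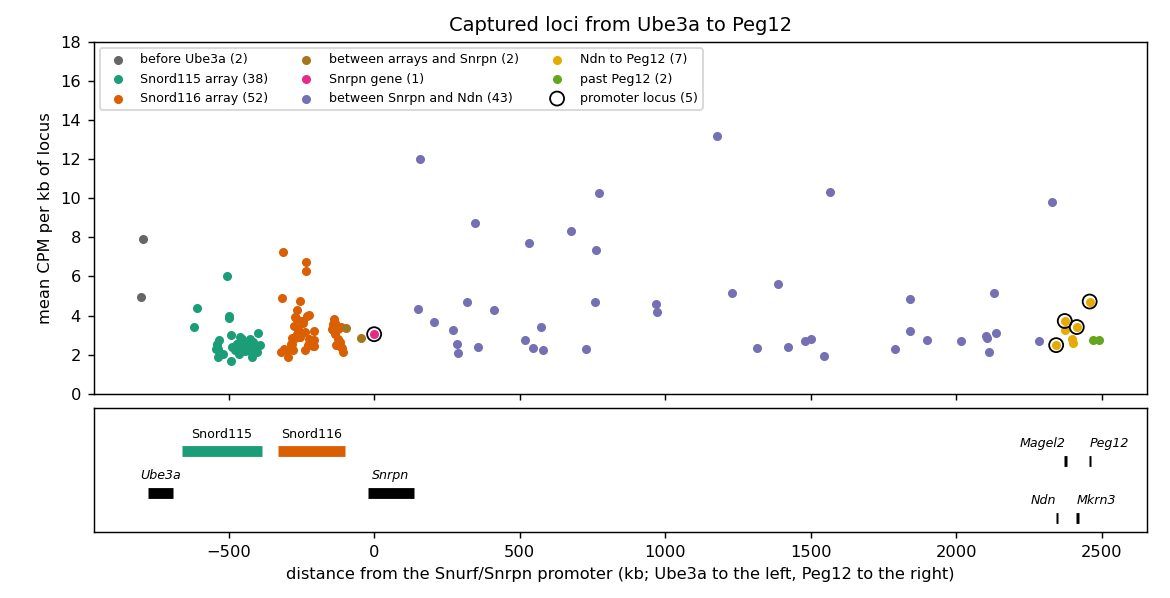
Mean capture (CPM per kb of locus, 48 libraries) of the 147 loci against distance from the Snurf/Snrpn promoter in kb, with genes and snoRNA arrays drawn to scale below (very short genes are widened to be seen). The promoter loci (circles) sit between 2.49 and 4.72 CPM per kb, below the highest loci of the gene-poor stretch, which reach 13.2.

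Levels per length were similar to those of the loci of the whole table. The median locus of the domain had 2.81 CPM per kb, against 2.71 over all loci, and mean counts per locus ran from 11.9 to 286. The 3 highest loci per kb all lay between Snrpn and Ndn and were largely repeats. They were chr7:61181951-61184069 with 13.2 CPM per kb and 85.9% of its bases in repeats, chr7:60162352-60164216 with 11.996 and 92.01%, and chr7:61569477-61571117 with 10.3 and 79.5%. The lowest were chr7:59511327-59512066 (1.65 CPM per kb) and chr7:59586202-59586986 (1.87) in the Snord115 array, and chr7:59707619-59708375 (1.89) in the Snord116 array. Of 11 loci above 7 CPM per kb, 9 lay between Snrpn and Ndn. In that stretch, Pearson's r across loci between CpG sites per 100 bases and log2 CPM per kb was 0.83 (43 loci), and over the domain it was 0.52 (147 loci). These are descriptions across loci of the same libraries, and loci are not independent replicates.

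The loci at the paternally expressed genes overlapped exons. The Snrpn locus, chr7:60003860-60005573, spans the annotated start of Snurf and 1 of the starts of Snrpn. Snurf is an upstream reading frame of the same transcript, and Snrpn encodes a protein of the small nuclear ribonucleoprotein complex. It held 52 CpG sites and 3.05 CPM per kb. The Ndn locus, chr7:62348204-62349451, lies in the exon of necdin, a neuronal growth suppressor, with 65 CpG sites and 2.49 CPM per kb. Magel2, an intronless gene of the MAGE family, was covered over 91.04% of its length by 2 loci, chr7:62377007-62379762 with 84 CpG sites and 3.72 CPM per kb, and chr7:62379893-62381355 with 35 CpG sites and 3.25. The Mkrn3 locus, chr7:62418751-62420594, covered 54.5% of this intronless ubiquitin ligase gene at 3.41 CPM per kb. The Peg12 locus, chr7:62463161-62464790, covered 51.1% of that gene, and it had the highest CpG content of the domain, 8.10 per 100 bases, with the highest level among the promoter loci, 4.72 CPM per kb. None of these 6 loci had a near copy (identical at 95% or more of the bases, over 50% or more of its length) elsewhere in the reference.

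Capture at the Snrpn promoter overlapped between all groups. Lowest, median and highest CPM were 3.10, 4.77 and 6.46 in Tph2+/+ controls and 4.05, 5.24 and 6.75 in Tph2+/+ MS mice. In Tph2+/- controls they were 3.15, 4.14 and 7.16, and in Tph2+/- MS mice 4.25, 5.04 and 6.37. In Tph2-/- controls they were 4.24, 5.11 and 5.74, and in Tph2-/- MS mice 3.72, 5.02 and 10.4. All groups overlapped, and the highest value came from replicate 2 of Tph2-/- MS. Over genotypes, MS was higher than C by 0.19 ± 0.09 on the log2 scale (SE), which did not pass the limits (adjusted p = 0.385, edgeR quasi-likelihood test).

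Magel2 was the one promoter locus that passed the study's limits, which ask for p under 0.01 before adjustment and a log2 difference past 0.2. Its lowest, median and highest CPM were 7.46, 10.03 and 12.4 in Tph2+/+ controls and 8.39, 10.3 and 11.7 in Tph2+/+ MS mice. They were 6.28, 9.74 and 11.1 in Tph2+/- controls and 5.92, 9.75 and 13.8 in Tph2+/- MS mice. In Tph2-/- controls they were 7.42, 9.43 and 10.8, and in Tph2-/- MS mice 7.51, 11.8 and 24.4. The ranges of C and MS overlapped in each genotype, and again replicate 2 of Tph2-/- MS was highest. The locus was higher in MS by 0.49 ± 0.16 (log2, SE) in Tph2-/- mice (adjusted p = 0.655) and by 0.23 ± 0.09 over genotypes (adjusted p = 0.263). Without replicate 2 of Tph2-/- MS these differences were 0.21 and 0.14, and neither passed. Without replicate 4 of Tph2-/- MS the difference over genotypes was 0.23 and did not pass, while that in Tph2-/- was 0.47 and did. Without all libraries with sample numbers S18 to S26 they were 0.04 and 0.04, and with an offset for CpG density in the fit 0.28 and 0.10, none of which passed. Leaving out S18 to S26 takes out MS libraries only, and of Tph2-/- MS it leaves replicates 5, 6 and 8. The cut after S26 follows no change of group, since S27 to S41 are MS libraries too.

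Ndn, Mkrn3 and Peg12 did not pass in any comparison. Over the 46 libraries Ndn ranged from 0.850 to 4.66 CPM, Mkrn3 from 3.74 to 12.7 and Peg12 from 3.12 to 18.9, with coefficients of variation of 23.6%, 26.6% and 46.4%. The highest library was replicate 2 of Tph2-/- MS for Mkrn3 and Peg12, and replicate 2 of Tph2+/+ MS for Ndn. Ndn had a mean of 3.29 ± 0.48 CPM in Tph2+/- controls and 2.47 ± 0.78 in Tph2+/- MS mice (SD, n = 8), a log2 difference of -0.42 with a 95% interval of -0.79 to -0.05 that missed the limits (adjusted p = 1.0). The Mkrn3 difference between MS and C in Tph2-/- mice was 0.36 (95% interval 0.02 to 0.70), and that of Peg12 was 0.29 (-0.34 to 0.92).

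**Figure D2:**
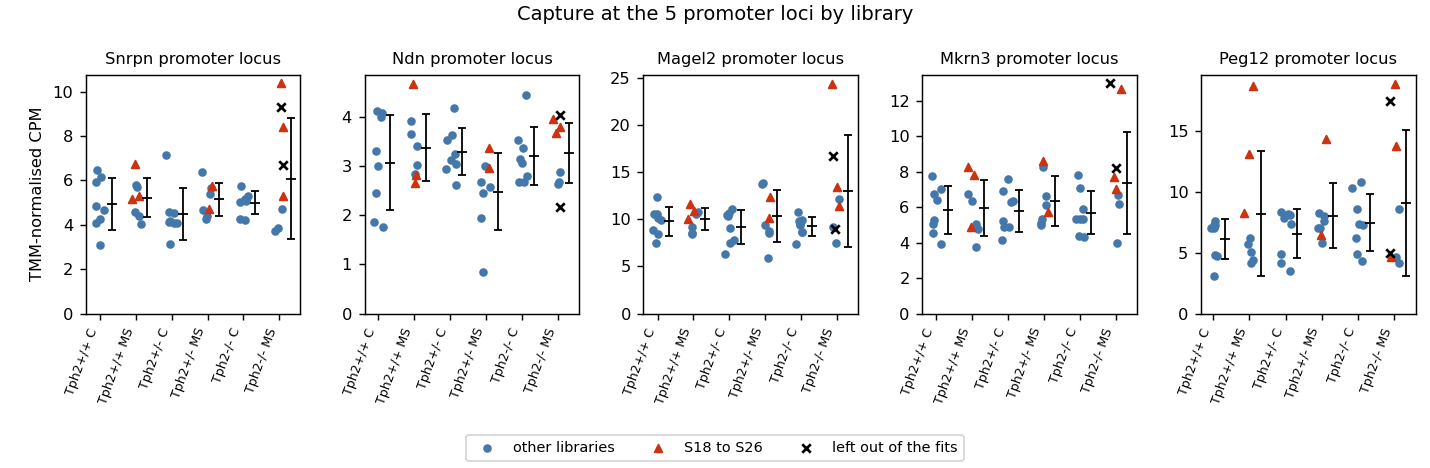
TMM-normalised CPM of the 5 promoter loci in each of 48 libraries by group, with mean and SD over the fitted libraries beside the points; triangles are fitted libraries with sample numbers S18 to S26 and crosses are the 2 libraries left out. In the Magel2 panel 1 Tph2-/- MS library stands at 24.4 CPM, and the other panels show the groups overlapping.

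No promoter locus passed the limits between genotypes. Between Tph2-/- and Tph2+/+ the log2 differences of the 5 promoter loci ran from 0.01 to 0.22 with standard errors of 0.11 to 0.22, and between Tph2+/- and Tph2+/+ from -0.17 to 0.05 with standard errors of 0.10 to 0.22. Their 95% intervals reached at most from -0.26 to 0.66 for Tph2-/- and from -0.43 to 0.47 for Tph2+/-. Changes within these intervals were not resolved. The MS difference in Tph2+/- minus that in Tph2+/+ ran from -0.56 (Ndn, 95% interval -1.07 to -0.04) to 0.14 over the promoter loci. With Tph2-/- in place of Tph2+/- it ran from -0.13 to 0.45 (Magel2, 0.03 to 0.88). None of these interactions passed the limits.

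**Figure D3:**
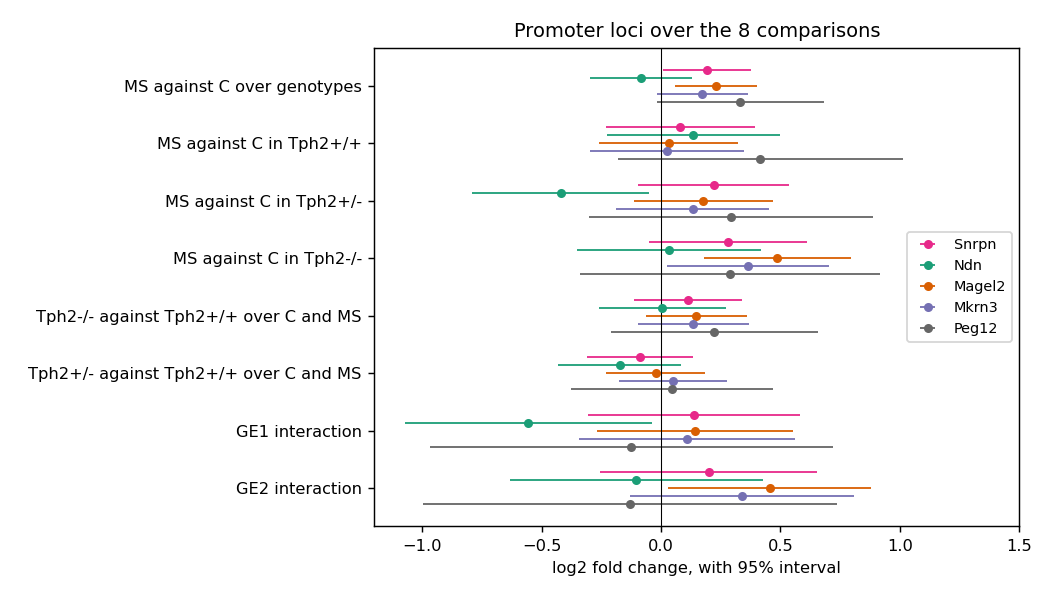
Log2 fold change of the 5 promoter loci in the 8 comparisons, with 95% intervals. GE1 and GE2 are the interaction of MS with the Tph2+/- and the Tph2-/- genotype, and most intervals cross 0, with Magel2 above 0 for MS in Tph2-/- mice at 0.49.

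Calls in the domain were few. In the edgeR fit of the 46 libraries with 1 term per group, their share was near that of the whole table or below it. For MS against C over genotypes 6 of 147 loci passed the limits of the study, 4.08%, against a background of 3.63% of all loci. For the same comparison the share was 6.80% with a replicate block (3.68% of all loci) and 5.44% with the DESeq2 Wald test (4.15%). For MS against C within Tph2+/+ 1 locus passed (0.680%, background 1.31%), within Tph2+/- 1 locus (0.680%, background 0.779%) and within Tph2-/- 2 loci (1.36%, background 1.48%). Tph2-/- against Tph2+/+ gave 0 calls (background 0.748%). At an unadjusted p under 0.05 it had 2 loci (1.36%, against 4.08% of all loci), and DESeq2 also called 0 (1709 of all 187695 loci). Tph2+/- against Tph2+/+ gave 1 call (background 0.546%). The interaction GE1, the MS difference in Tph2+/- minus that in Tph2+/+, gave 0 calls (background 0.626%). At an unadjusted p under 0.05 it had 3 loci (2.04%, against 3.71% of all loci), and DESeq2 called 1 (1471 of all 187695 loci). The interaction GE2, with Tph2-/- in place of Tph2+/-, gave 1 call (background 0.558%). No locus of the domain reached an adjusted p under 0.05 in edgeR in any of the 8 comparisons, although 25 had an unadjusted p under 0.05 for MS over genotypes (17.01%, against 12.2% of all loci). Without the libraries S18 to S26, 8 loci passed for MS within Tph2-/- (5.44%, against 1.18% of all loci), none of which was called with them. That fit holds only replicates 5, 6 and 8 of Tph2-/- MS against all 8 Tph2-/- controls. Over all 187695 loci, the DESeq2 Wald test gave 1226 at an adjusted p under 0.05 for MS over genotypes. In the domain 1 did so, chr7:59498541-59501833, at an adjusted p of 0.0498.

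That locus, of 3293 bases, is a repeat inside the Snord115 array (98.2% repeat bases, 100 CpG sites) with 14 near copies outside the domain. It had a lowest, median and highest of 12.6, 16.9 and 19.5 CPM in Tph2+/+ controls and of 18.2, 20.4 and 27.99 in Tph2+/+ MS mice. These ranges overlapped. The difference was 0.38 ± 0.13 (log2, SE, adjusted p = 0.755) in Tph2+/+ and 0.23 ± 0.07 over genotypes (adjusted p = 0.190). Without the libraries S18 to S26 the difference over genotypes was 0.04 and did not pass. In Tph2+/- the medians were 17.7 CPM in C and 16.8 in MS.

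In the Snord116 array 2 loci were lower in MS. One, chr7:59725949-59726913, overlaps the snoRNA gene Gm23265 and has 67 near copies in the domain. Its lowest, median and highest CPM were 1.70, 2.49 and 5.66 in Tph2-/- controls and 0.452, 1.55 and 2.11 in Tph2-/- MS mice, with overlapping ranges. It fell by 0.92 ± 0.33 on the log2 scale in Tph2-/- (SE, adjusted p = 0.660) and by 0.59 ± 0.18 over genotypes (adjusted p = 0.175). The call in Tph2-/- was lost without replicate 2 (-0.76), 4 (-0.81) or 6 (-0.91) of Tph2-/- MS and without S18 to S26 (-0.66). The other, chr7:59870814-59872380, overlaps Snord116l14, and its level fell by 0.32 ± 0.10 over genotypes (adjusted p = 0.199). Its medians were 5.31, 4.78 and 4.84 CPM in C of Tph2+/+, Tph2+/- and Tph2-/-, and 4.25, 4.19 and 4.02 in MS.

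Between Snrpn and Ndn another 2 loci were lower in MS over genotypes. At chr7:60549037-60549813, in no annotated gene, the level fell by 0.51 ± 0.16 (log2, SE, adjusted p = 0.171), with medians of 2.21, 2.08 and 1.83 CPM in C and 1.37, 1.86 and 1.52 in MS in the same order of genotypes. At chr7:62140500-62141420, in the predicted gene Gm9801, it fell by 0.33 ± 0.11 (adjusted p = 0.218), with medians of 2.93, 3.49 and 2.78 CPM in C and 2.53, 2.90 and 2.15 in MS. Across these comparisons 9 loci gave 12 calls, of which 2 passed without the libraries S18 to S26. In all 20 loci described singly here and each of the 3 genotypes, the ranges of C and MS overlapped. How often ranges overlap over all loci was not counted, so this is a description and sets these loci apart from no others.

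The remaining calls lay at low levels, with mean counts of 12.1 to 13.8 per library. The Snord115 locus chr7:59466833-59467455 had a median of 1.53 CPM in Tph2+/- controls and 0.805 in Tph2+/- MS mice and fell by 0.89 ± 0.34 on the log2 scale (SE, adjusted p = 1.0). The same locus had the smallest p for GE1, with a log2 difference of -1.23 ± 0.47 (adjusted p = 1.0), and was not called. The Snord115 locus chr7:59563910-59564441 had means of 1.34 and 1.81 CPM in the C and MS groups of Tph2+/- and of 1.03 and 0.996 in those of Tph2+/+, a difference of 0.60 ± 0.21 (adjusted p = 1.0). For GE2 the call was chr7:62403471-62403866, in the predicted gene Gm32061 between Magel2 and Mkrn3. Here means were 1.28 CPM in C and 0.754 in MS in Tph2+/+, and 0.889 in C and 1.397 in MS in Tph2-/-, an interaction of 1.42 ± 0.46 (adjusted p = 1.0). The smallest p for Tph2-/- against Tph2+/+ was at the Snord115 locus chr7:59531970-59532545, -0.47 ± 0.21 (adjusted p = 1.0).

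The snoRNA arrays gave most of the loci, and their spacing followed the repeat units. The Snord115 snoRNAs are known for pairing with the serotonin receptor 2C transcript, and the Snord116 snoRNAs for their loss in Prader-Willi syndrome. GENCODE lists 134 snoRNA genes of 78 to 79 bases in the first array, a median of 1871 bases apart, and 70 of 92 to 94 bases in the second, 2527 bases apart; the names of the arrays are background, since most members carry predicted gene names. The commonest sequence of each is printed here to show how few CpG sites the snoRNA genes themselves hold, with CpG in capitals. They were read from the minus strand of GRCm38, at chr7:59393561-59393639 and chr7:59678509-59678602 among other places.
Snord115, found in 33 of 134 genes: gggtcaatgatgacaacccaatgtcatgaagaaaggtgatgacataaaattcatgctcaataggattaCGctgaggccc
Snord116, found in 30 of 70 genes: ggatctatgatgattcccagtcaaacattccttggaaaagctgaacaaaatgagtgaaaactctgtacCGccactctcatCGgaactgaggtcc
In the Snord116 array 46 of 52 loci overlapped a snoRNA gene, and 65.7% of its snoRNA genes lay under a locus. In the Snord115 array only 1 of 38 loci did so. There, locus centres stood a median of 702 bases upstream of the nearest snoRNA gene, since transcription runs along the minus strand, and 35 of 38 lay on that side. Loci followed each other at a median of 2595 bases in Snord116, about 1 unit, and 3756 bases in Snord115, about 2 units. Snord115 units with at least 300 bases under a locus had a median of 20 CpG sites (33 units, range 17 to 24), against 17 in units without (96 units, range 7 to 23). In the Snord116 array the medians were 23 (50 units) and 22 (17 units). A near copy elsewhere in the domain existed for 33 of the 38 and 50 of the 52 loci, at a median best identity of 99.6% and 99.2%, so reads may have been split among units and a value for 1 unit is uncertain. Sums over an array are less open to this.

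**Figure D4:**
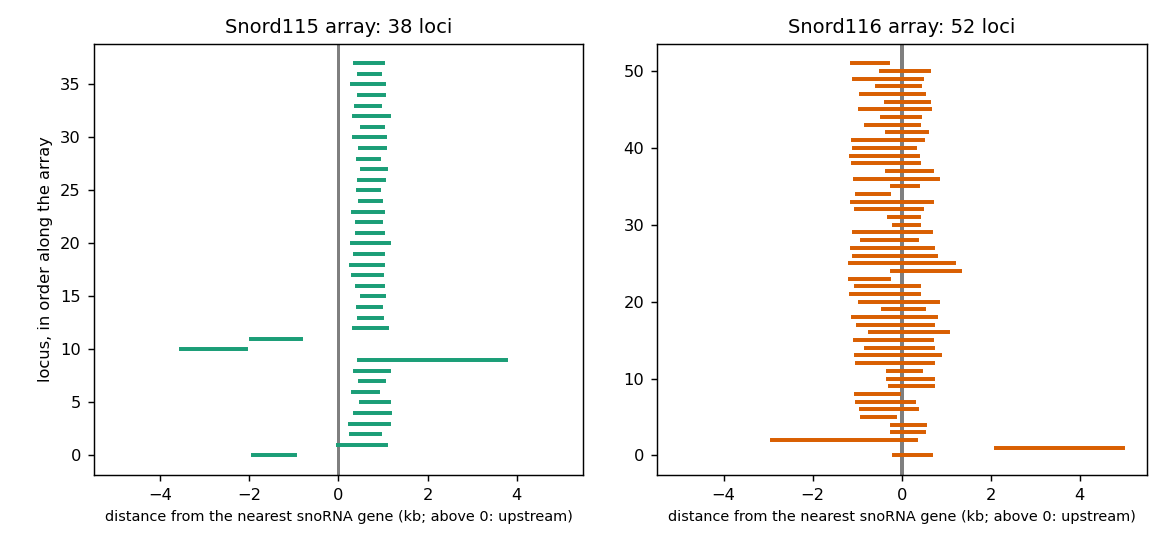
Extent of each locus of the Snord115 (38) and Snord116 (52) arrays relative to the centre of its nearest snoRNA gene (grey band), in kb, with values above 0 upstream. Of the 38 Snord115 loci, 35 are centred upstream of the snoRNA gene, and 46 of the 52 Snord116 loci lie across it.

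Single loci of the Snord116 array were mostly below 0 for MS, while its summed capture overlapped between groups. The sum had a lowest, median and highest of 219.4, 258 and 317 CPM in Tph2+/+ controls and 189, 226 and 360 in Tph2+/+ MS mice. In Tph2+/- controls these were 213, 245 and 443, and in Tph2+/- MS mice 180, 264 and 337. In Tph2-/- controls they were 203, 264 and 337, and in Tph2-/- MS mice 131, 257 and 302. All groups overlapped, and the median was lower in MS in Tph2+/+ and Tph2-/- and higher in Tph2+/-. The loci had a median log2 difference of -0.15 for MS over genotypes, 46 of 52 below 0, against a median of 0.00 over all loci, and 7 of the 52 had an unadjusted p under 0.05, all lower (13.5%, near the 12.2% of all loci). In Tph2-/- 48 of 52 were below 0 with a median of -0.22, but without the libraries S18 to S26 only 19 were, with a median of 0.06. That median was -0.11 with Tph2-/- MS replicates 2 and 3 left out instead and -0.05 with a term for late control libraries. The array's loci share libraries and sequence and are not replicates. Over genotypes, without the libraries S18 to S26 the median was 0.02 with 22 of 52 below 0, and with a term for the control libraries S42 to S48 it was -0.02 with 30 of 52 below 0. The Snord115 sum stayed between 68.5 and 114 CPM, and its group means were 82.9 to 86.9.

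The stretch between Snrpn and Ndn and the promoters showed the opposite sign. Over genotypes, 28 of the 43 loci between Snrpn and Ndn were above 0 for MS (median 0.06), and 10 of the 13 with an unadjusted p under 0.05 (30.2%, against 12.2% of all loci) were higher in MS. Of the 5 promoter loci 4 were above 0 (median 0.19). Without the libraries S18 to S26, 14 of 43 and 1 of 5 were above 0, with medians of -0.03 and -0.03.

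These shifts moved with the sample numbers and with a property of the libraries. The numbers run in the order of the count columns, and whether they follow the order of capture or sequencing is not known. Libraries S1 to S17 and S42 to S48 were all C, and S18 to S26 and S27 to S41 all MS, so sample number and MS cannot be told apart and no comparison of MS with C within one of these stretches was possible. The cut between S26 and S27 lies inside the MS libraries and follows no change of group. Of the MS libraries, S18 to S26 had the higher mean CpG slope (below). Fits without them are thus no independent check of the MS differences. For each library a CpG slope was computed over loci with a mean count of at least 10. It used log2 CPM less the mean of the locus over all 48 libraries, and gives its change per standard deviation of CpG density. A slope of 0 thus marks a library like the average one, not capture without regard to CpG density. The slope averaged -0.02 in S1 to S17, 0.09 in S18 to S26, -0.03 in S27 to S41 and -0.05 in S42 to S48. In the same order the 5 promoter loci summed to 31.2 ± 3.66, 43.1 ± 12.5, 29.2 ± 3.78 and 26.6 ± 2.14 CPM (SD, n = 17, 8, 14 and 7). The Snord116 array summed to 247 ± 29.3, 210 ± 50.8, 265 ± 46.2 and 315 ± 64.7 CPM. Replicate 2 of Tph2-/- MS (S19) had a slope of 0.238, the highest promoter sum, 70.3 CPM, and the lowest Snord116 sum, 131 CPM. Across 46 libraries Pearson's r of the slope was 0.91 with the promoter sum (Spearman's rho 0.84, and r 0.87 without the 2 libraries of most extreme slope) and -0.53 with the Snord116 sum (rho -0.47, r -0.47 without those 2). The slope was computed from the same libraries and is given as a description. With an offset for CpG density in the fit, the median MS difference was -0.01 for the promoter loci, 0.03 between Snrpn and Ndn and -0.12 in the Snord116 array, where 46 of 52 loci were below 0, 45 of them also below 0 without the offset. The part of CpG density in these differences was not tested further.

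**Figure D5:**
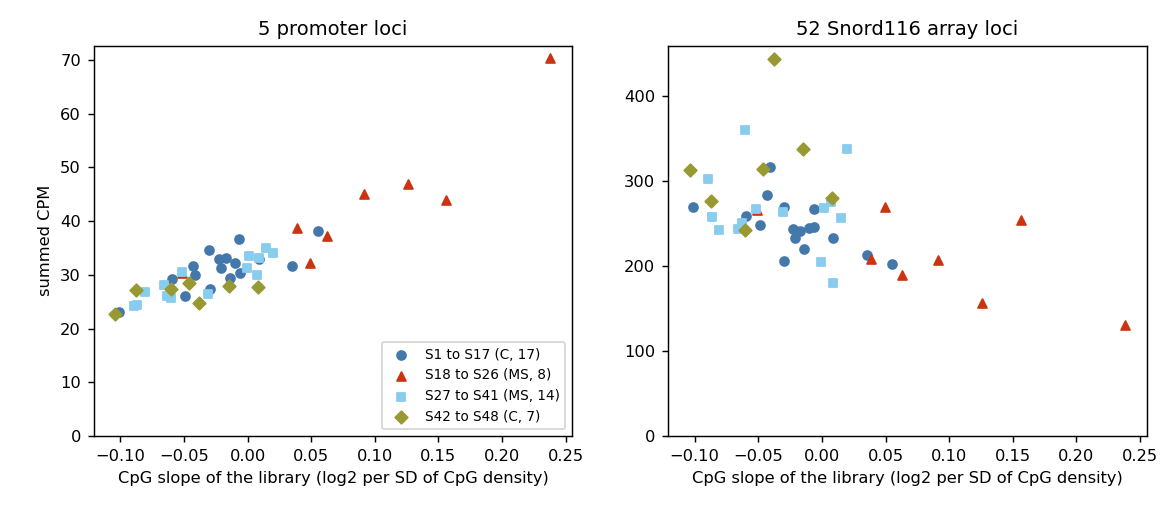
Summed CPM of the 5 promoter loci (left) and of the 52 Snord116 loci (right) against the CpG slope of each of the 46 fitted libraries, marked by stretch of sample numbers. Promoter capture rises with the slope (r = 0.91), the Snord116 sum falls (r = -0.53), and the library at the far right is replicate 2 of Tph2-/- MS.

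Imprinted promoters elsewhere were also captured. All 11 maternally methylated promoters examined for comparison, among them Mest, Peg3, Grb10 and Kcnq1ot1, had a locus within 1 kb of a start, with 3.77 to 6.89 CPM per kb at the strongest locus of each (median 4.596), against 2.49 to 4.72 (median 3.41) for the 5 promoter loci of the domain. No test was run on these levels. The genes next to the domain held 49 loci in all, of which 3 were called for MS over genotypes (6.12%, background 3.63%), in Gabrg3 (2) and Herc2 (1), and 1 for GE1, in Gabrg3. Gabrg3, a GABA receptor subunit gene, held 14 loci over its length, and Atp10a, the nearest coding neighbour of Ube3a in the list, held 3, none of them called.

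Outside the domain, the loci whose log2 CPM followed the Snrpn promoter locus most closely over the 46 libraries lay in Pard6b (chr2:168097994-168101757, Pearson's r = 0.77), Slc38a4 (chr15:97052542-97056163, 0.76) and Pvt1 (chr15:62217592-62219912, 0.75). They had 3.06 to 3.53 CpG sites per 100 bases, against 3.03 at Snrpn. The slope's r with the Snrpn locus over the same libraries was 0.75.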

How the data were processed

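The deposited table holds read counts per locus for 48 libraries. The authors sheared amygdala DNA, captured methylated fragments with a methyl-CpG-binding domain, sequenced pairs of 50 bp reads, aligned them to GRCm38.p5 with Bowtie2 2.1.0, called peaks with MACS and counted reads in merged peaks with DiffBind 2.0.9. Of the non-zero counts in the domain, 64.1% were even, so mates may have been counted singly. Peaks came from these libraries, so a region without a locus has no value, and capture falls where CpG sites are few.

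Counts as deposited were tested with edgeR 4.0.16 in R 4.3.3 (quasi-likelihood test, robust, TMM scaling, 1 term per group, Benjamini-Hochberg adjustment over all 187695 loci) in 8 comparisons. A locus was called where p before adjustment was under 0.01 and the log2 difference was past 0.2, as in the study. SE is the log2 fold change divided by the root of F, and 95% intervals use the normal quantile. Levels are TMM-scaled CPM, and log2 CPM used a pseudocount of 0.1. Depth was 7.72 to 14.1 M counts per library. Genes came from GENCODE M21 and RefSeq, and near copies were found with minimap2 2.31.

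The members and lists were chosen with earlier results of these data known. Loci are described singly if within 1 kb of a start of a defining gene, called, of smallest p in a comparison, or among the 3 highest or lowest per kb. The 3 loci elsewhere most like the Snrpn locus were also named. Alternatives were DESeq2 1.42.0 and its size factors, a low-count filter, other sets of libraries, a term for late control libraries, a replicate block and a CpG offset. Leaving out each fitted Tph2-/- MS library in turn was chosen after seeing the data. No label marks the cut after S26 that the fit without S18 to S26 uses. Leaving out libraries of the other 5 groups singly was not run.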

Additional observations from a re-analysis of the deposited data

Results flagged for a closer look

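Over all 48 libraries, 24 sets of values (an item in a group of 8) had 1 library far above the others by Dixon's criterion, 15.4% of the sets tested. Chance gives about 1 in 20 for independent sets. These sets share libraries, some sums hold loci that are also counted singly, and many loci were picked by level or p. An excess over chance was therefore not tested. Tph2-/- MS replicate 3, left out of the tests, gave 6, with sums of 101.3 CPM before Ube3a and 880.0 CPM between Snrpn and Ndn, and 51.95, 104, 132 and 78.4 CPM at the loci starting at 59498541, 60162352, 61181951 and 61569477. Tph2+/- MS replicate 1 gave 5, with sums of 437 CPM between Snrpn and Ndn and 44.02 CPM over the promoter loci, and 41.1, 49.8 and 14.4 CPM at 60162352, 61181951 and Peg12. Tph2+/+ MS replicate 1 gave 4, a sum of 451 CPM between Snrpn and Ndn and 48, 53.3 and 35.97 CPM at 60162352, 61181951 and 61569477. These 3 libraries have sample numbers between S18 and S26.

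Tph2+/- C replicate 7 gave 3, with sums of 114 CPM in Snord115 and 443 CPM in Snord116, and 9.75 CPM at 59870814. Of the 6 others, 59466833 reached 3.65 CPM in Tph2+/+ MS replicate 7, 59511327 reached 1.87 in Tph2+/- MS replicate 7, and 59563910 reached 1.68 in Tph2+/+ C replicate 5. The locus at 59725949 reached 5.66 CPM in Tph2-/- C replicate 8, 59870814 reached 7.08 in Tph2+/- MS replicate 3, and Snrpn reached 7.16 in Tph2+/- C replicate 5.

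The effect of MS differed between Tph2-/- and Tph2+/+ at the locus starting at 62403471 by 1.42 on the log2 scale in the interaction test, at an adjusted p of 1.0 in edgeR.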

How the results depend on the processing

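DESeq2 size factors and the low-count filter kept all 12 calls. The DESeq2 Wald test called 2 loci for Tph2+/- against Tph2+/+ (1355 of all 187695 loci) and 1 for GE1 (1471 of all loci). It gave 1 locus at an adjusted p under 0.05 for MS over genotypes (1226 of all loci). With all 48 libraries, calls were 14 for MS over genotypes (9.52% of the domain, against 5.79% of all loci). They were 0 in Tph2+/+, 0 in Tph2+/- and 11 in Tph2-/- (7.48% of the domain, against 5.37% of all loci). The share over all loci was not taken here for Tph2+/+ and Tph2+/-. With Tph2-/- MS replicates 2 and 3 left out instead, calls were 2 for MS in Tph2+/+, 1 for GE1 and 3 for GE2. The share over all loci was not taken for these comparisons. Both calls in Tph2-/- and 3 of the 6 over genotypes were lost. With a term for late control libraries, calls were 2 for MS in Tph2+/+ (2259 of all 187695 loci), 0 in Tph2+/- (1402 of all loci) and 1 for GE1 (1174 of all loci). Here 3 of the 6 calls over genotypes and 1 of the 2 in Tph2-/- were lost. Without S18 to S26, calls for MS were 3 over genotypes (2.04%, against 1.26% of all loci) and 8 in Tph2-/- (5.44%, against 1.18% of all loci). There was 1 call for Tph2-/- against Tph2+/+ (1225 of all loci) and 0 for Tph2+/- against Tph2+/+ (1385 of all loci). GE1 had 1 call (1438 of all loci) and GE2 had 3 (1604 of all loci). The MS differences over genotypes turned to -0.0291 at Snrpn, -0.0301 at Mkrn3 and -0.165 at Peg12. Over all loci this setting gave 2374 calls for MS, against 6816. With the CpG offset, calls were 2 for MS in Tph2+/- (1614 of all loci), 2 for Tph2+/- against Tph2+/+ (1131 of all loci) and 1 for GE1 (1311 of all loci). The MS differences turned to -0.0450 at Mkrn3 and -0.00942 at Peg12. The cause of these shifts was not tested.

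Leaving out each fitted Tph2-/- MS library in turn gave 5 to 13 calls for MS over genotypes (13 without replicate 5 and 13 without replicate 8) and 1 to 8 in Tph2-/- (5 without replicate 5, 8 without replicate 8 and 1 without replicate 6). The share over all loci was not taken for these fits, so a change in the domain and one in the whole table cannot be told apart. The locus at 59725949 lost its call in Tph2-/- without replicate 2, 4 or 6, that at 59498541 its call over genotypes without replicate 2 (0.19), and that at 62140500 without replicate 8 (-0.28).

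Libraries of the same replicate number resembled each other little in the median. Their deviations had a median correlation of 0.0152 over 120 pairs, against -0.00118 over 840 other pairs. Of the 120, 12 were above 0.1, with a highest of 0.244. In all, 11 of 48 libraries correlated best with their own number, and the count that chance gives was not computed. With the replicate block, calls were 10 for MS over genotypes (6.80% of the domain, against 3.68% of all loci). They were 3 in Tph2+/+ (2623 of all loci) and 0 in Tph2+/- (1564 of all loci), and 11 of the 12 calls were kept.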

Other observations

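Over 46 libraries, pairs of Snord116 loci had a median Pearson's r of 0.53 in log2 CPM (1326 pairs) and pairs of Snord115 loci 0.20 (703 pairs). Among the promoter loci the median was 0.58 (10 pairs), which rested on few libraries: without the 2 most extreme, r fell from 0.61 to 0.15 for Snrpn with Magel2, from 0.58 to 0.21 for Magel2 with Mkrn3 and from 0.58 to 0.29 for Snrpn with Peg12. The r of Ndn was 0.13 with Snrpn, 0.25 with Magel2, 0.02 with Mkrn3 and 0.20 with Peg12. Pairs share libraries and are not independent.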
